A study of Mus musculus with 32 samples.

Results

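The comparison concerned prospermatogonia of the next generation in a vinclozolin (VZ) line of mice. Members were chosen by sample title: 3 G2R VZ male arrays and 3 G2R oil male arrays, 6 of the 32 arrays of the series. In both groups the fetuses were G2 males of an OG2 by FVB cross, OG2 being a line that carries a green fluorescent protein transgene under the Oct4 promoter. Green germ cells, which the labels call primordial germ cells, were sorted from gonads at 17.5 days post coitum. In the G2R VZ group the G0 FVB grandmothers had received vinclozolin, an anti-androgenic fungicide, at 100 mg/kg/day by gavage, first given at 12.5 days post coitum, and the G1 sons exposed in the womb were later mated with untreated OG2 females. In the G2R oil group the grandmothers had received the oil vehicle alone. No G2 fetus of either group was itself exposed. The question was whether an effect of the exposure persisted into germ cells that had gone through a further round of reprogramming. RNA was hybridized to Affymetrix Mouse Gene 1.0 ST arrays with 35556 probes, and each value is a deposited log2 RMA signal, where a difference of 1 is a doubling.

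Further groups served as comparison: 3 G1R VZ and 3 G1R oil male arrays, from G1 fetuses of an FVB by OG2 cross that were in the womb during the dosing of the G0 dams and were collected at the same age, and 3 G2R DEHP male arrays, from a line exposed to the phthalate DEHP at 750 mg/kg/day. The sources did not say whether arrays of a group came from separate litters, so p-values measure only the spread between arrays. Median log2 signals were 7.42 to 7.45 in the VZ arrays and 7.42 to 7.47 in the oil arrays. Of 30 genes of male germ cells, 29 had a mean signal above 6.7 over the 6 arrays, the boundary used here for dim probes, and 7 of 7 Y-linked genes did too. So did 12 of 15 Sertoli cell genes and 8 of 12 fetal Leydig cell genes measured, both cell types of the surrounding testis. In bulk RNA, fewer cells of a type and less RNA per cell cannot be told apart.

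At this stage male germ cells, called prospermatogonia or gonocytes, have stopped dividing and acquire the DNA methylation pattern of the future sperm, including the paternal imprints. They depend on RNA-binding proteins of the NANOS family and on the piRNA pathway, which guides methylation to transposons. Ribosome production in any cell relies on small nucleolar RNAs (snoRNAs), most of which are cut from introns of host genes. Box C/D snoRNAs guide ribose methylation of ribosomal RNA, box H/ACA snoRNAs guide its pseudouridylation, and a few, such as U3 and U8, serve in cutting the precursor.

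No probe differed between G2R VZ and G2R oil cells after adjustment over all probes by limma (0 of 35556, 0%). The smallest adjusted p was 0.147, for a probe with no gene name, which had 8.81, 8.72 and 8.6 in the VZ arrays against 9.95, 9.52 and 9.26 in the oil arrays. At an unadjusted threshold of 0.05 there were 1925 probes, 5.41% of those tested, of which 1005 were higher and 920 lower in VZ. Differences were small: 5% of probes lay below -0.23 and 5% above 0.3, the median standard error of a difference was 0.123, and 16 of the 1925 probes differed by at least 1 on the log2 scale. Without VZ array 1 the adjusted count was 5 and the unadjusted count 2879. Without oil array 1 the unadjusted count was 987, and without oil array 3 the adjusted count was 1 and the unadjusted count 2610.

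The genes furthest above oil were mostly snoRNAs. Among probes of a single gene above 6.7, 438 passed the unadjusted threshold with groups that did not overlap, 133 higher and 305 lower in VZ, and the 10 highest and 10 lowest of these are given as a description of the extremes. Snora16a, a box H/ACA snoRNA, had 9.64, 10.86 and 10.42 in VZ arrays 1 to 3 against 9.12, 9.33 and 9.57 in oil, a log2 difference of 0.97 ± 0.267 (SE; adjusted p = 0.913). Snord52 had 7.06, 7.82 and 7.66 in VZ against 6.27, 6.7 and 6.97 in oil. Snord47, a box C/D snoRNA, had 10.03, 10.6 and 10.62 in VZ against 9.12, 9.77 and 9.97 in oil. In each of these 3 genes VZ array 1 was the lowest VZ array and oil array 3 the highest oil array, and those arrays lay close together. Scarna13, which acts on spliceosomal RNAs in Cajal bodies, differed by 0.83 ± 0.345 (SE), Snord35b by 0.65 ± 0.184 (SE) and Snord73b by 0.59 ± 0.212 (SE).

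The other genes among the 10 highest were protein-coding. Selenoh, a selenoprotein of the nucleolus, had 9.37, 9.43 and 9.47 in VZ against 9.03, 8.82 and 9.04 in oil (difference 0.46 ± 0.125, SE). Rps15a, a protein of the small ribosomal subunit, had 8.95, 9.15 and 8.92 in VZ against 8.46, 8.63 and 8.59 in oil. Dppa3, which shields DNA from loss of methylation in the zygote, had 7.32, 7.42 and 7.85 in VZ against 7.0, 7.09 and 7.21 in oil. The absence of overlap in these genes was required by the rule that chose them. Ndufb2, a subunit of respiratory complex I, differed by 0.42 ± 0.181 (SE).

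**Figure D1:**
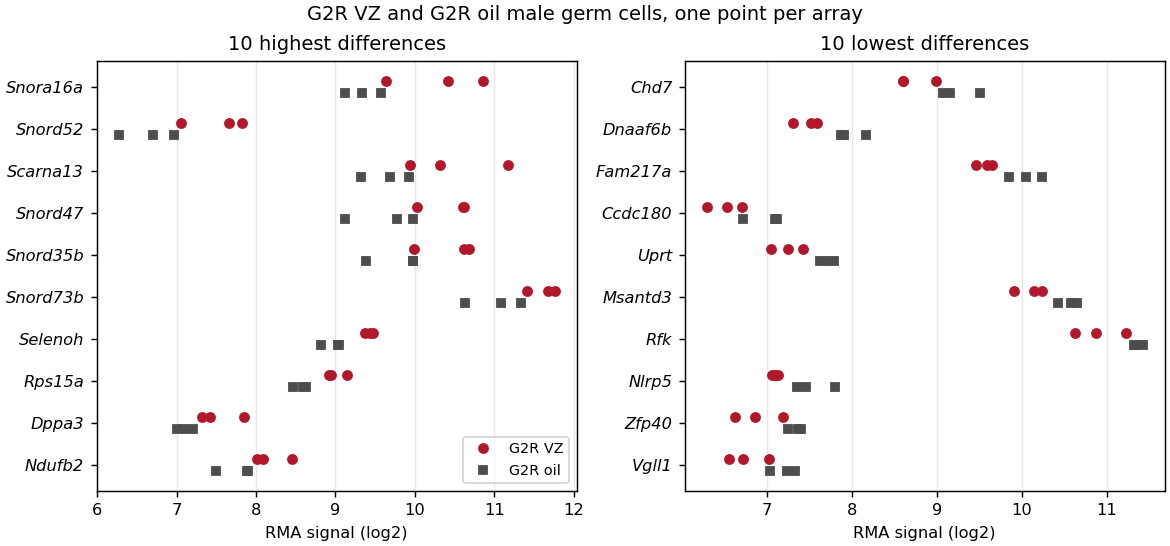
RMA signal (log2, x axis) of the 10 genes with the highest and the 10 with the lowest difference among single-gene probes above 6.7 that passed the unadjusted threshold without overlap; circles are the 3 G2R VZ arrays and squares the 3 G2R oil arrays. The spread among VZ arrays differs by gene, with the 3 Snora16a values between 9.64 and 10.86 and the 3 Selenoh values between 9.37 and 9.47. For Snord73b and Snord47 the SD was larger in oil (0.359 and 0.446) than in VZ (0.183 and 0.334). For the other snoRNAs shown it was larger in VZ.

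The 10 genes furthest below oil had no common family. Chd7, a chromatin remodeller, had 8.99, 8.6 and 8.6 in VZ against 9.5, 9.15 and 9.07 in oil (difference -0.51 ± 0.156, SE; adjusted p = 0.913). Rfk, which makes the flavin cofactor FMN from riboflavin, had 11.22, 10.62 and 10.87 in VZ against 11.32, 11.42 and 11.33 in oil. Nlrp5, a maternal-effect gene of the oocyte, had 7.13, 7.09 and 7.06 in VZ against 7.8, 7.46 and 7.35 in oil. The Nlrp5 values were close together in VZ and the spread lay in the oil arrays, while for Rfk it lay in VZ. The remaining genes were Dnaaf6b, whose family assembles dynein arms of cilia, with a difference of -0.5, Fam217a and Ccdc180 with -0.47 each, Uprt with -0.47, Msantd3 with -0.46, the zinc finger gene Zfp40 with -0.44 and Vgll1, a partner of TEAD factors, with -0.44.

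Among single-gene probes above 6.7, the 5 smallest p-values belonged to Spata48, Rfk, Birc2, Snhg17 and Runx1t1, while some unnamed or dimmer probes had smaller ones. Spata48 had 7.04, 7.16 and 7.09 in VZ against 6.61, 6.77 and 6.68 in oil (difference 0.41 ± 0.103, SE). Birc2, an inhibitor of apoptosis, had 7.55, 7.5 and 7.4 in VZ against 7.12, 7.2 and 7.17 in oil (difference 0.32 ± 0.0851, SE). Runx1t1, a corepressor of transcription, had 9.55, 9.33 and 9.39 in VZ against 9.83, 9.74 and 9.62 in oil (difference -0.31 ± 0.0834, SE). The groups did not overlap in any of these 3 genes. The adjusted p was 0.913 for each, as for Rfk and Snhg17. In DEHP minus oil, on the same oil arrays, Spata48 differed by 0.22, Birc2 by 0.28 and Runx1t1 by -0.27. Snhg17 differed there by 0.34 and Rfk by -0.14.

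The snoRNA list had the largest median difference of the lists examined. Of 54 snoRNA genes, 51 had a positive difference, 23 were higher in VZ at the unadjusted threshold and 0 were lower. Over 19938 genes, each by its brightest probe, 8675 had a positive difference, 1.72% were higher and 2.42% lower. The median difference was 0.39 for the list and -0.02 for all genes, and no snoRNA passed the adjusted test. All VZ arrays lay above all oil arrays for 10 of the 54 and below for 1, against 4.15% and 6.27% of all genes. By class, 16 of 31 box C/D, 6 of 20 box H/ACA and 1 of 3 Cajal body RNAs were higher at the unadjusted threshold, with medians of 0.42, 0.39 and 0.11. Fitted on the 6 arrays alone, 14 of the 54 were higher.

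The shift was carried unevenly by the arrays. The list mean was 9.14, 9.69 and 9.77 in VZ arrays 1 to 3 against 8.92, 9.13 and 9.36 in oil arrays 1 to 3. VZ array 1 thus lay within the range of the oil arrays and VZ arrays 2 and 3 above it. Within the VZ group, 42 of 54 snoRNAs were lowest in array 1. Without VZ array 1 the count of higher snoRNAs was 34, without VZ arrays 2 or 3 it was 11 and 12, and without oil array 1 it was 8. No snoRNA was lower in any of these fits. The G2R DEHP arrays, set against the same oil arrays, had list means of 9.1, 9.52 and 9.38. In VZ minus DEHP, 2 of 54 snoRNAs were higher and 0 lower at the unadjusted threshold, against 1.28% and 3.26% of all genes.

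**Figure D2:**
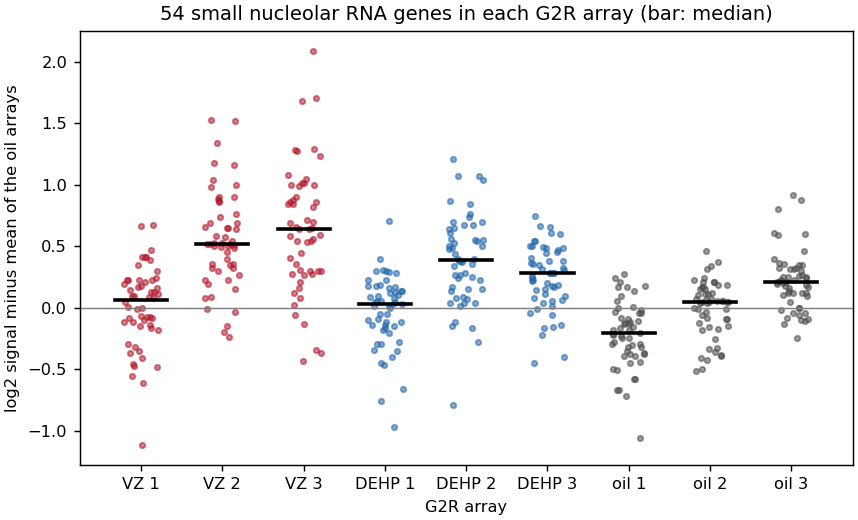
Each point is 1 of 54 snoRNA genes, as log2 signal minus its mean over the 3 oil arrays (y axis), in each G2R array (x axis); bars are medians. VZ arrays 2 and 3 stand highest, and VZ array 1 lies among the oil arrays.

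The largest spreads within the VZ group also belonged to small structured RNAs. Of 15952 single-gene probes above 6.7, 57 had a standard deviation above 0.5 over the VZ arrays, and 21 of these 57 were snoRNA probes (36.8%, against 0.339% of the probes considered). In the oil arrays the corresponding counts were 29 probes and 10 snoRNA probes. Snora33 had 8.33, 9.95 and 10.46 in VZ against 9.15, 8.93 and 10.25 in oil, the largest SD of all (1.11 in VZ). Snord15b had 9.37, 10.52 and 11.57 in VZ against 9.12, 9.52 and 9.81 in oil. Rnu3a, which encodes U3, had 8.97, 10.36 and 10.72 in VZ against 9.2, 9.08 and 9.65 in oil. In all 3 genes array 1 was the lowest VZ array and array 3 the highest. Snord118, which encodes U8, had 11.3, 12.27 and 13.01 in VZ against 11.11, 11.53 and 12.7 in oil, with the same values on both of its probes. Snora69, Snora20, Snora75 and Snord15a, together with a probe of the host gene Snhg17 (8.86, 9.94 and 10.63 in VZ against 8.89, 8.94 and 9.61 in oil), made up the remaining probes of the 10 with the largest spread. Because these genes were picked for their spread, the values describe them and support nothing further.

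The protein-coding hosts of snoRNAs had differences near 0. By RefSeq coordinates, 27 snoRNAs lay inside a single measured gene, all of them protein-coding, and these made 23 host genes. Of these 23 hosts, 12 had a positive difference, 1 was higher at the unadjusted threshold (Rpl27a, a ribosomal protein gene, at 0.21) and 0 were lower, with a median of 0.01. The median for the 27 snoRNAs was 0.33, and the snoRNA lay above its host in 25 of 27 pairs. The median SD over the VZ arrays was 0.341 for the snoRNAs and 0.0798 for the hosts. Rps3, a ribosomal protein gene and host of Snord15a and Snord15b, had 11.05, 11.13 and 11.24 in VZ against 10.92, 11.05 and 11.05 in oil. Ncl, which encodes nucleolin and holds Snora75 and Snord82, had 12.33, 12.36 and 12.33 in VZ against 12.28, 12.24 and 12.18 in oil. Both hosts varied among VZ arrays by under 0.2, whereas Snord15b varied there by over 2. These hosts were chosen after their values were seen.

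**Figure D3:**
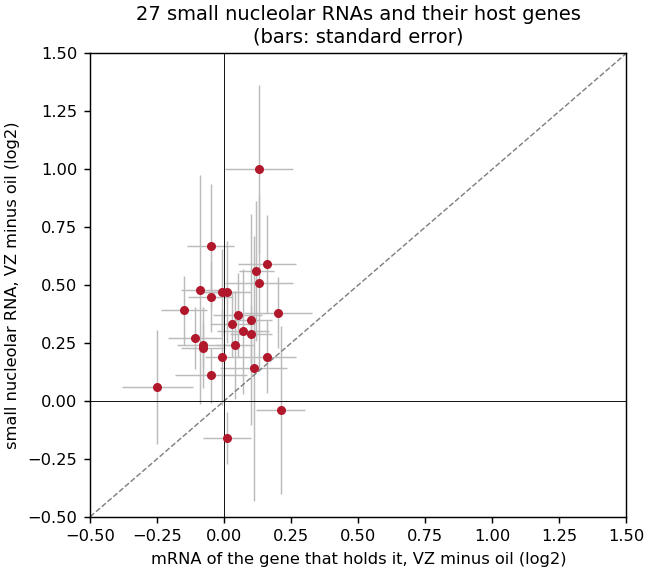
Difference between G2R VZ and G2R oil (log2) of 27 snoRNAs (y axis) against that of the protein-coding gene that contains each (x axis); bars are standard errors and the dashed line marks equal differences. Hosts centre on 0.01 and snoRNAs on 0.33, with 25 of 27 points above the line.

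Among noncoding hosts, Gas5, whose introns hold several box C/D snoRNAs including Snord47, had 10.14, 10.49 and 10.17 in VZ against 9.53, 10.05 and 10.12 in oil (difference 0.36 ± 0.141, SE; unadjusted p = 0.0164 by limma). A dimmer Gas5 probe had 7.02, 8.49 and 7.63 in VZ against 7.46, 7.38 and 7.04 in oil, with overlap. Each transcript on the list of noncoding hosts was represented by its brightest probe. On that basis Gas5 was the 1 of 7 that was higher at the unadjusted threshold, and 0 were lower. Another, dimmer Snhg17 probe had 8.97, 9.41 and 9.54 in VZ against 8.89, 8.86 and 9.02 in oil. Its unadjusted p was 0.000996 by limma, against 0.104 for the brightest Snhg17 probe. It was among the 5 probes that passed the adjusted test without VZ array 1. The others were Ccdc141 and 3 probes with no gene name. By RefSeq class, 22 of 675 long noncoding RNA genes were higher (3.26%) and 5 lower (0.741%), against 1.72% and 2.42% of all genes. This class was dim, with means of 6.75 to 6.78 in the VZ arrays and 6.72 to 6.75 in the oil arrays. Of the 3988 dimmest genes of any class, 2.98% were higher and 1.2% lower. Among 18556 protein-coding genes, 275 were higher (1.48%) and 463 lower (2.5%).

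Dim probes moved slightly with the groups. With genes split by mean signal into 5 equal groups, 119 of the 3988 dimmest were higher and 48 lower in VZ, and of the 3988 brightest 49 were higher and 166 lower. Of 1027 olfactory receptor genes, taken as a measure of background since few are used outside the nose, 42 were higher and 2 lower, with a median of 0.08 and list means of 5.23, 5.27 and 5.3 in VZ against 5.11, 5.22 and 5.23 in oil. The part of this background in the snoRNA shift was not tested, and 49 of the 54 snoRNA genes were above 6.7.

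Of 30 male germ cell genes, 3 (Tex101, Nanos3 and Nanos2) were higher and 0 lower at the unadjusted threshold, with a median of -0.02. Over all genes 1.72% were higher and 2.42% lower, the shares against which the counts of this and the following lists stand. Tex101, a surface protein of germ cells, had 10.56, 10.86 and 10.67 in VZ against 10.35, 10.45 and 10.37 in oil (difference 0.31 ± 0.0866, SE). Nanos3, needed for survival of primordial germ cells, had 7.5, 7.48 and 7.58 in VZ against 7.25, 7.18 and 7.27 in oil (difference 0.28 ± 0.106, SE). In DEHP minus oil, on the same oil arrays, Tex101 differed by 0.25 and Nanos3 by 0.3. Nanos2, which promotes the male fate, had 6.43, 6.51 and 6.6 in VZ against 6.1, 6.28 and 6.11 in oil. None of the 3 overlapped between groups, and Nanos2, which lay below 6.7 and so outside the rule for named genes, was named after its values were seen. The list mean lay between 9.98 and 10.04 in the VZ arrays and between 9.97 and 10.02 in the oil arrays, which overlapped.

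For the enzymes that write and read DNA and histone methylation, a single gene of each list was at the unadjusted threshold. Of 20 genes of DNA methylation measured, Dppa3 was higher and 0 were lower. Zbtb38, a reader of methylated DNA, had 10.23, 10.29 and 10.06 in VZ against 10.37, 10.33 and 10.36 in oil, without overlap and at an unadjusted p = 0.0515 by limma. Dnmt3b, a de novo methyltransferase, had 8.51, 8.46 and 8.41 in VZ against 8.52, 8.59 and 8.47 in oil. Of 31 genes of histone methylation, 1 was lower and 0 were higher. This was Kdm2b, a histone H3 demethylase with a CXXC domain, which had 9.13, 9.03 and 9.07 in VZ against 9.43, 9.34 and 9.18 in oil (difference -0.24 ± 0.0808, SE). Kmt2c, an H3K4 methyltransferase, differed by -0.07 ± 0.0831 (SE) and Ehmt2, an H3K9 methyltransferase, by -0.07 ± 0.0919 (SE).

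Of 32 genes measured for the list of imprinted genes, 2 were lower and 0 higher, against 2.42% and 1.72% of all genes. The 32 included Nckap1 (-0.1 ± 0.0645, SE), which was not on the list as written and was matched through an older symbol. Dio3, which inactivates thyroid hormone, had 6.51, 6.64 and 6.6 in VZ against 7.02, 6.76 and 6.75 in oil, and Ascl2, a placental transcription factor, had 7.03, 6.95 and 7.17 in VZ against 7.2, 7.33 and 7.33 in oil. The VZ arrays were below the oil arrays in both genes, and in 4 of the 32, against 6.27% of all genes, with a list median of -0.04. Of 30 genes of meiosis and the oocyte, 1 was higher and 1 lower. The first was Sohlh1, a transcription factor of early germ cell differentiation, at 0.23 ± 0.097 (SE) and the second Nlrp5.

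Genes of hormone pathways differed little. Of 18 genes of the androgen pathway measured, 0 were higher and 0 lower at the unadjusted threshold. Of 14 estrogen pathway genes, only Gper1, a membrane estrogen receptor, was higher, with 7.03, 7.08 and 6.89 in VZ against 6.78, 6.57 and 6.89 in oil, and 0 were lower. Of 18 genes of the xenobiotic response, 1 was higher and 1 lower. Cyp1a1, a target of the aryl hydrocarbon receptor, differed by 0.27 ± 0.109 (SE) and Gclc, of glutathione synthesis, by -0.29 ± 0.128 (SE). Among 28 stress and immediate early genes, 0 were higher and 0 lower.

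Markers of the surrounding testis varied from array to array. The Sertoli cell list had means of 8.28, 8.11 and 7.84 in VZ against 7.63, 7.83 and 7.99 in oil. VZ arrays 1 and 2 lay above the oil arrays and VZ array 3 within them, with 10 of 15 genes highest in VZ array 1 and 13 of 15 lowest in VZ array 3. The list median was 0.21, and 13 of 15 differences were positive, against 8675 of all 19938 genes. In either direction 0 genes passed the unadjusted threshold. Amh, the anti-Müllerian hormone, had 8.43, 7.57 and 7.22 in VZ against 6.57, 7.25 and 7.0 in oil. Inha, a subunit of inhibin, had 9.61, 9.19 and 8.25 in VZ against 7.85, 8.36 and 8.69 in oil. Hsd17b3, which makes testosterone from androstenedione and is expressed in Sertoli cells of the fetal mouse testis, had 8.4, 8.22 and 7.13 in VZ against 7.17, 7.53 and 7.9 in oil (difference 0.38 ± 0.43, SE; adjusted p = 0.967). In all 3 genes VZ array 1 was the highest VZ array and VZ array 3 the lowest, and the VZ and oil arrays overlapped.

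Cyp17a1, an enzyme of androgen synthesis, had 9.57, 9.31 and 8.9 in VZ against 7.58, 9.37 and 10.82 in oil, so that the whole VZ range lay inside the oil range. Of 12 Leydig cell genes, 0 passed the unadjusted threshold. The interstitial cell list had means of 7.69, 7.99 and 7.74 in VZ against 7.71, 7.79 and 7.94 in oil, and the endothelial list 7.73, 7.97 and 7.7 in VZ against 7.73, 7.76 and 7.78 in oil. VZ array 2 was the highest VZ array in both, for 11 of 14 and 9 of 10 genes. Eng, an endothelial coreceptor of TGF-beta ligands, was the 1 gene of the 2 lists at the unadjusted threshold (0.29 ± 0.137, SE). Of 14 macrophage and blood cell genes, Ptprc, the leukocyte antigen CD45, was lower (-0.23 ± 0.0961, SE) and 0 were higher, and 4 of the 14 were above 6.7. The part of these cells in any difference was not tested.

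**Figure D4:**
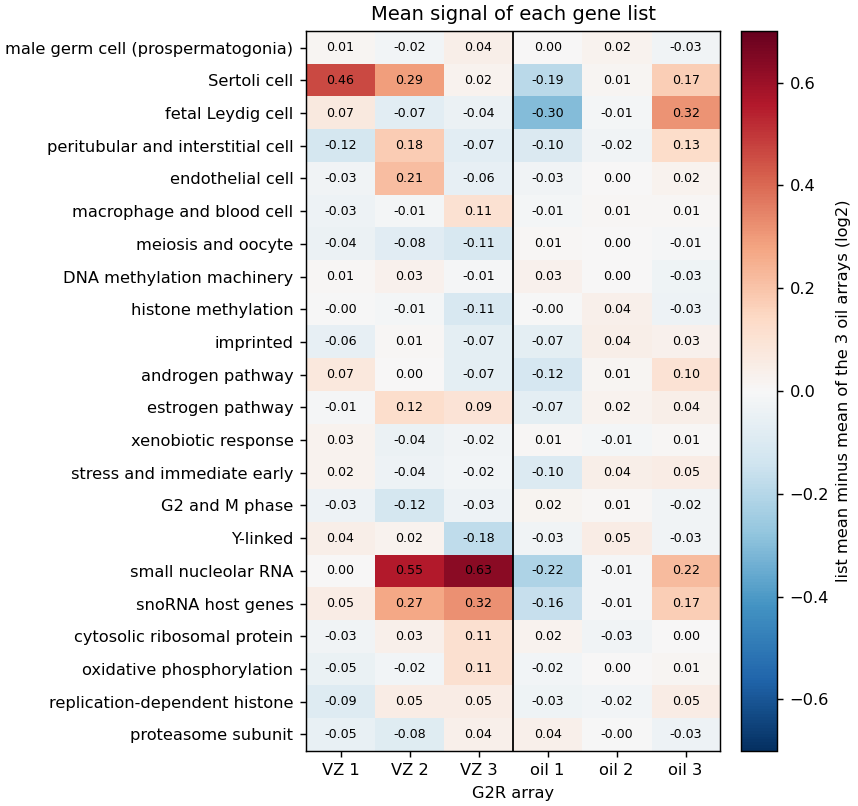
Mean log2 signal of each gene list (rows) in the G2R VZ and G2R oil arrays (columns) minus the mean of the 3 oil arrays, printed in each cell. Lists of snoRNAs and Sertoli cell genes differ most among the VZ arrays, with snoRNAs lowest in VZ array 1 and Sertoli cell genes lowest in VZ array 3, and the male germ cell list stays near 0.

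The 3 VZ arrays thus differed from one another in several named groups. The median SD per probe was 0.115 over the VZ arrays, 0.132 over the DEHP arrays and 0.0988 over the oil arrays. The SD was larger in VZ than in oil for 57.7% of probes, and larger in DEHP than in oil for 62.9%. VZ array 3 was the furthest from the mean of the rest of its group, with a root mean square distance of 0.201 against 0.182 for array 1 and 0.175 for array 2. In the oil group these distances were 0.176, 0.147 and 0.157, and in the DEHP group 0.189, 0.208 and 0.223. Oxidative phosphorylation genes were highest in VZ array 3 for 50 of 73 genes and ribosomal protein genes for 39 of 60. The shares of all genes highest or lowest in each VZ array were not counted, here or for the lists above. The oxidative phosphorylation list had 5 genes higher and 3 lower than oil and a median of 0, and the ribosomal protein list had 5 higher and 2 lower and a median of 0.02, against 1.72% of all genes higher and 2.42% lower, and 1.23% and 4.16% of the 3988 brightest. Atp5mpl, a small subunit associated with ATP synthase, had 10.46, 10.4 and 10.68 in VZ against 9.84, 10.3 and 10.24 in oil, and Rpl24, of the large ribosomal subunit, had 11.48, 11.62 and 11.85 in VZ against 11.36, 11.12 and 11.31 in oil. All VZ values of both genes were above the oil values. Uqcrb of the oxidative phosphorylation list went the other way, with 11.81, 11.77 and 11.96 in VZ against 12.19, 12.05 and 12.24 in oil. On that list 7 genes had all VZ arrays above oil and 10 below. The ribosomal protein list had 6 above and 5 below, where all genes had 4.15% above and 6.27% below.

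The genes of 3 miRNAs were among the 57 probes with the largest spread in VZ, and their mature sequences from RefSeq (GRCm38.p6) are given to identify the products of these transcripts. Capitals mark the seed, bases 2 to 8, and each mature form has a seed of its own. For Mir485 the sequences used here held the 3p form alone, so its products may be incomplete.
miR-377-5p, chr12:109740515-109740536, plus strand: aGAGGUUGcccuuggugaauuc
miR-377-3p, chr12:109740553-109740574, plus strand: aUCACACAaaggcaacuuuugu
miR-485-3p, chr12:109734946-109734967, plus strand: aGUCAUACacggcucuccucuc
miR-186-5p, chr3:157544285-157544306, plus strand: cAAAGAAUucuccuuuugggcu
miR-186-3p, chr3:157544324-157544345, plus strand: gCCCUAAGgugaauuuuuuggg

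The array probes do not separate the mature forms from their precursors. Mir377 had 7.26, 7.38 and 6.17 in VZ against 7.22, 7.03 and 6.31 in oil, and Mir485 had 8.08, 8.26 and 7.31 in VZ against 8.25, 7.96 and 7.61 in oil. Both lie in the imprinted Dlk1 to Dio3 region of chromosome 12, and both were lowest in array 3 of each group. Mir186 of chromosome 3 had 7.9, 7.85 and 6.95 in VZ against 6.96, 7.44 and 7.37 in oil. Of 40 miRNA genes measured between Dlk1 and Dio3, 24 were lowest in VZ array 3 among the VZ arrays (60%, against 29.3% of all 297 miRNA genes), 15 were above 6.7, and their mean was 6.15, 6.19 and 5.98 in VZ against 6.09, 6.17 and 5.92 in oil. These miRNA genes were chosen after their values were seen, and VZ and oil overlapped.

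Counts were also taken by gene length, a grouping made after the data were seen. Of 13861 protein-coding genes above 6.7, 1.07% were higher and 2.9% lower in VZ at the unadjusted threshold. With these genes split into 5 groups by RefSeq gene length, 66 of the 2773 shortest, up to 8.04 kb, were higher and 62 lower. Of the 2772 longest, from 74.2 kb, 6 were higher and 103 lower, with a median difference of -0.06. Relative to the oil mean, the median of the longest group was -0.02 in VZ arrays 1 and 2 and -0.12 in VZ array 3. The lower count in that group was 179 without VZ array 1, 181 without oil array 3, 51 without VZ array 3, 42 without oil array 1, 62 without oil array 2, 50 with the 6 arrays alone and 36 with the replicate number as a block.

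The difference between VZ and oil was then set against that of the exposed generation, since a persistent effect would appear in both. The difference between generations, tested as G2R VZ minus oil less G1R VZ minus oil, passed in 0 of 35556 probes (0%), with 5744 (16.2%) at the unadjusted threshold. Of the probes at that threshold in either generation, 1925 in G2R and 6493 in G1R, 438 were in both. These were 6.75% of the G1R probes, where 5.41% of all probes were at the threshold in G2R. They were 22.8% of the G2R probes, where 6493 of all 35556 probes were at the threshold in G1R. Of these 438, 63 went the same way in both generations and 375 opposite ways. The generations share no arrays, but the direction of the cross differed between them and the study gives a different time of running as likely, so that generation, cross and time cannot be told apart. Without G2R VZ array 1, 200 probes passed the test of the difference, without G2R oil array 3 there were 5, and without G1R oil array 2 there were 28.

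The snoRNAs were among the genes with opposite differences. In G1R, 2 of 54 were higher and 31 lower in VZ than in oil at the unadjusted threshold, against 9% and 10.3% of all genes, with a median of -0.46, where G2R had 0.39. The list mean was 9.01, 9.1 and 8.88 in G1R VZ against 9.62, 9.53 and 9.45 in G1R oil, with no overlap. For 45 of 54 snoRNAs the difference between generations passed the unadjusted threshold, against 16.8% of all genes. Snora16a had 8.87, 9.51 and 8.72 in G1R VZ against 10.52, 9.7 and 9.67 in G1R oil, and its difference between generations was 1.9 ± 0.378 (SE; adjusted p = 0.0984 by limma). Rnu3a, encoding U3, had 8.57, 8.8 and 8.13 in G1R VZ against 10.53, 10.2 and 10.83 in G1R oil, and its difference between generations was 2.73 ± 0.69 (SE; adjusted p = 0.112 by limma). VZ was below oil in G1R without overlap in both genes.

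Of 27 genes of the G2 and M phases measured, 1 was higher and 2 lower in G2R VZ, with a median of -0.06, near the -0.05 of the 3988 brightest genes. In G1R VZ, 11 were higher and 0 lower, with a median of 0.19. The 3988 brightest genes also rose in G1R VZ, with 646 higher, 53 lower and a median of 0.08. Smc4, a condensin subunit, had 10.29, 10.23 and 10.36 in G2R VZ against 10.56, 10.49 and 10.63 in G2R oil, and 10.74, 10.55 and 10.53 in G1R VZ against 10.08, 10.3 and 10.41 in G1R oil. VZ was below oil in G2R and above it in G1R, without overlap in either, and the difference between generations was -0.61 ± 0.123 (SE; adjusted p = 0.0984 by limma). Nuf2, a kinetochore protein, gave -0.58 ± 0.141 (SE). Birc5, or survivin, had 7.0, 7.14 and 7.14 in G2R VZ against 6.44, 7.02 and 6.72 in G2R oil.

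**Figure D5:**
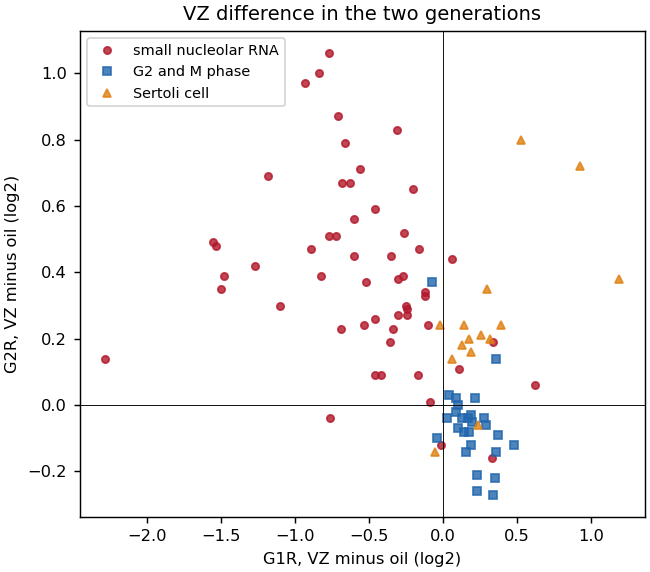
Difference between VZ and oil (log2) in G2R (y axis) against the same in G1R (x axis), 1 point per gene of 3 lists. snoRNAs lie mostly at the upper left (medians 0.39 in G2R and -0.46 in G1R), genes of the G2 and M phases at the lower right (-0.06 and 0.19) and Sertoli cell genes mostly above 0 on both axes (0.21 and 0.24).

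Among single-gene probes above 6.7, the 10 smallest p-values of the difference between generations had an adjusted p of 0.0984 each by limma. Besides Snora16a, Snord47, Selenoh and Smc4 they were Casd1, which acetylates sialic acids, at -0.58 ± 0.109 (SE), the zinc finger genes Zfp948 at -0.59 ± 0.116 (SE) and Zfp518a at -0.63 ± 0.136 (SE), Hspa13, a chaperone of the endoplasmic reticulum, at -0.61 ± 0.126 (SE), Dennd4a at -0.88 ± 0.189 (SE) and Paics, an enzyme of purine synthesis, at -0.59 ± 0.127 (SE). Paics had 11.74, 11.6 and 11.69 in G2R VZ against 11.92, 11.98 and 11.85 in G2R oil, and 12.2, 12.32 and 12.09 in G1R VZ against 11.71, 11.96 and 11.9 in G1R oil. In all 10 the estimates had opposite signs in the 2 generations, which a choice by this p favours, so their signs are a description only. Hsd17b3 had 9.33, 8.46 and 8.75 in G1R VZ against 7.76, 7.15 and 8.07 in G1R oil, without overlap, and its difference between generations was -0.8 ± 0.607 (SE; adjusted p = 0.532 by limma).

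Against the DEHP line of the same generation, VZ differed in 0 of 35556 probes (0%) after adjustment and in 1575 (4.43%) at the unadjusted threshold. Of the 20 genes furthest above or below oil, 4 were at the unadjusted threshold against DEHP, each with an adjusted p of 1 by limma: Snora16a (0.74 ± 0.267, SE), Rfk (-0.32 ± 0.12, SE), Zfp40 (-0.35 ± 0.167, SE) and Vgll1 (-0.29 ± 0.125, SE). Snora16a had 9.64, 10.86 and 10.42 in VZ against 9.44, 10.08 and 9.2 in DEHP, and Rfk had 11.22, 10.62 and 10.87 in VZ against 11.23, 11.3 and 11.12 in DEHP. The VZ and DEHP arrays overlapped in both of these genes. In DEHP minus oil, all 20 had the same sign as in VZ minus oil. The higher genes ranged there from 0.11 (Dppa3) to 0.55 (Scarna13) and the lower ones from -0.48 (Msantd3) to -0.09 (Zfp40). For genes named elsewhere, DEHP minus oil was -0.37 for Smc4 and -0.2 for Kdm2b, but -0.09 for Dio3 and 0.09 for Eng. All 20 were chosen on the same VZ arrays, and both lines were set against the same oil arrays, so these values are no independent support.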

How the data were processed

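The authors labelled RNA of sorted germ cells, hybridized it to Affymetrix Mouse Gene 1.0 ST arrays and deposited log2 values normalized by RMA in Partek (version not given in the sources used here). These log2 values were used as deposited. A probe was named from the platform annotation if it listed a single gene (21789 of 35556 probes, 1621 with several genes, 12146 not listed), and 21698 symbols were checked against RefSeq. For lists, a gene was represented by its brightest probe.

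All 32 arrays in 11 groups were fitted with limma 3.58.1 (R 4.3.3, 21 residual degrees of freedom), as group means with contrasts, moderated variances and Benjamini-Hochberg adjustment over all probes at 0.05. The number of arrays limits the precision. The fit was tested on simulated data. Named genes were the 10 highest and lowest, the 5 smallest p, the most variable, up to 4 genes of each list, genes the study names, and the 10 smallest p between generations. Except for genes the study names, these were taken from single-gene probes above 6.7. Probes that passed the adjusted test under an alternative were also named. Members, lists and rules were chosen with earlier results of these data known. Alternatives changed the variance, arrays, probes, normalization, weights or pairing.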

Additional observations from a re-analysis of the deposited data

How the results depend on the processing

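With an array left out, the number of probes that passed the adjusted test ranged from 0 to 5 for VZ against oil, from 0 to 200 for the difference between generations and from 0 to 1 for VZ against DEHP, and it was 0 under every other alternative run for these 3 comparisons. Probes of VZ against oil at the unadjusted threshold ranged from 987 to 2879 with an array left out, and were 1031 with single-gene probes alone (426 higher, 605 lower), where fewer probes were tested, 905 higher and 1053 lower after cyclic loess, and 619 higher and 797 lower among probes above the dim boundary. The higher snoRNA genes ranged from 8 to 34 with an array left out, and were 14 with the 6 arrays alone and 15 with the G2R arrays alone; the cause was not tested. The median SD within the VZ arrays was 0.085 to 0.0983 with a VZ array left out. Deviations of arrays with the same number correlated at 0.07, 0.01 and 0.08 between VZ and oil, so the numbers were not taken to pair the arrays. With the replicate number as a block the counts were 0 for all 3 comparisons, 1944 at the unadjusted threshold and 27 for the higher snoRNAs. Of 134 named probes under 14 alternatives, 6 passed the adjusted test under an alternative. A reversal of sign was counted only for named probes at the unadjusted threshold on all arrays, and 0 of these reversed. Changes of sign in the other named probes, such as those of Snora3 and Snora33, were not counted. The test between generations could not be run on the G2R arrays alone. With 3 arrays a group the median standard error of a difference was 0.123, and none of the differences listed passed the adjusted test on all arrays.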
